A study of Mus musculus with 3 samples.

Results

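The genes described here are p53 and its direct targets in WR19L, a mouse T-lymphoma cell line from the BALB/c strain. Of 10 listed genes, 9 had at least 1 probe set that carried the symbol of that gene alone, and the gene of p53 itself was not analysed here. These 9 genes are covered by 19 of the 34958 probe sets with a single gene symbol, and they are 9 of 18194 named genes. Total RNA was measured on Affymetrix arrays, 1 array per group, in untreated cells. The first group is the DKO line, WR19L cells made deficient in flippases, with stable expression of the Q84E mutant of human ATP11A. The second is the same DKO line with stable expression of human ATP11A in its wild-type form, and the third is parental WR19L. ATP11A is a flippase, a P4-ATPase that carries phospholipids from the outer to the cytosolic side of the cell membrane. The knockout is shared by both DKO lines and absent from parental cells, and flippase activity was not measured here. In ratios over parental cells the knockout, the transgene and the derivation of the line therefore cannot be told apart. Between the DKO lines, with 1 array each, the mutation, the level of the transgene and the derivation cannot be told apart either.

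The protein p53 is a transcription factor that is kept low in unstressed cells and accumulates after DNA damage, nucleolar stress or oncogene activity. It binds pairs of half-sites near its targets and raises genes that halt the cell cycle, start apoptosis, repair DNA or adjust metabolism. Its targets also include its own inhibitors, which closes a feedback loop, and lymphomas of the mouse often carry lesions of this pathway. Whether p53 is intact in WR19L is not recorded in the labels.

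The promoters of 6 of the 9 genes were in the RefSeq table of GRCm38.p6, as 8 windows that run from 250 bases before a gene's start to 50 after it. Those of Trp53inp1, Perp and Zmat3 were not used here. The p53 consensus half-site, whose pattern is its own reverse complement and so covers both strands, occurred with no mismatch in 4 of the 8 windows and in 8.36% of all 32851 windows. The stretches are shown because they hold exact letter matches to the half-site, a single one in Mdm2, Ccng1 and Sesn1, and capitals mark these matches. A match is a description of letters and does not show binding.
Cdkn1a, chr17:29090876-29090967, plus strand: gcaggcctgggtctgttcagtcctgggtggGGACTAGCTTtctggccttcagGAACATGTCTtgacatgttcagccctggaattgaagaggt
Mdm2, chr10:117710905-117710974, minus strand: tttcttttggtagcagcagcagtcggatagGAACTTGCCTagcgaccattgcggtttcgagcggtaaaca
Ccng1, chr11:40755432-40755501, minus strand: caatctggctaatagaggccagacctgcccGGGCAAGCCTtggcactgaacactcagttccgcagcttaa
Sesn1, chr10:41887236-41887305, plus strand: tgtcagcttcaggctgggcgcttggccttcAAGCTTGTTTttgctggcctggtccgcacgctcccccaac
Counted from the gene's start, the 2 half-sites of Cdkn1a began at -73 and -51, with no overlap, and the other matches began at -186 in Mdm2, -185 in Ccng1 and -173 in the second Sesn1 window. The windows of Btg2 and Phlda3, the other Sesn1 window and the second Cdkn1a window held no exact match.

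Values are MAS5 signals on a linear scale, which the authors had scaled to a common mean, and each comparison is a difference of log2 signals. Signals under the median of their own array, 55.5 for Q84E, 50.5 for wild-type ATP11A and 50.3 for parental cells, were set to that floor in ratios. A gene was compared by its brightest probe set if that reached the floor on at least 1 array, as did 11596 genes and all 9 genes named here. Of their 19 probe sets, 14 reached the floor on all 3 arrays, 1 on some and 4 on none. With 1 array per group there is no replicate, SD or p-value, and the number of arrays limits the precision. Differences are therefore set against the error of 1 probe set, taken from pairs of probe sets of the same gene. Its SD in log2 ratio was 0.32 to 0.36 for signals between the 50th and 75th percentile, 0.18 to 0.19 between the 75th and 90th, and 0.10 to 0.11 above the 90th. That error does not include the spread between cultures. Of 8 genes listed as T cell markers, 6 reached the floor on every array, among them Cd3d and Thy1, while Cd3e and Cd5 were under it on all 3. The summed signal of these 8 genes was 34064 in Q84E cells, 30267 in wild-type ATP11A cells and 35059.5 in parental cells, a sum of which Lat, nearly level, made up 16203 to 17599. Of the 6 compared T cell markers 5 were lower in wild-type ATP11A than in parental cells. The median log2 ratio of the 6 was -0.49, with Cd2 at -0.89 and Cd3d at -0.69. By brightest probe set, the wild-type ATP11A array was the lowest for 3 of the 9 genes, against 29.98% of all genes. These 3 were Mdm2, Cdkn1a and Btg2, and none of their other probe sets, some under the floor, was lowest on that array. B cell markers summed to 445 to 519.7, myeloid markers to 250.5 to 349 and stromal and epithelial markers to 214 to 347. Cd79a, Cd79b, Cd14, Col1a1 and Krt18 were under the floor throughout, while Blk, Pax5, Csf1r, Fcgr3, Col1a2 and Krt8 reached it on all 3 arrays. Blk was the brightest of these, at 343 in Q84E cells, 307 in wild-type ATP11A cells and 294 in parental cells. The part of these marker differences in the results below was not tested. In bulk RNA, fewer cells that express a gene and less of its RNA per cell cannot be told apart.

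Between the mutant and wild-type ATP11A, in the same DKO background, Btg2 was the only 1 of the 9 genes at least 1.5-fold higher with Q84E, and 0 were as much lower. Over all genes compared, 5.78% were at least 1.5-fold higher and 1.97% at least 1.5-fold lower. None of the 9 reached 2-fold in either direction, which 1.35% of all genes did. Of the 9 log2 ratios, 6 were above 0 and 3 below, with a median of 0.19 against 0.05 over all genes, of which 58.1% were above 0.

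Between wild-type ATP11A cells and parental cells, Perp was the only 1 of the 9 genes at least 1.5-fold lower, and 0 were as much higher. Of all genes, 3.56% were as much lower and 3.51% as much higher. None of the 9 reached 2-fold, against 1.45% of all genes. Of the 9 ratios, 4 were above 0 and 5 below, and the median was -0.04 against 0.01 over all genes.

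Between Q84E cells and parental cells, 3 of the 9 genes, Trp53inp1, Btg2 and Phlda3, were at least 1.5-fold higher, against 7.36% of all genes. Perp alone was at least 1.5-fold lower, against 2.94% of all genes, and it was also the only 1 of the 9 past 2-fold by its brightest probe set, against 2.42% of all genes. The median of the 9 was 0.24 against 0.07 over all genes, with 7 above 0 and 2 below. The 3 comparisons share arrays in pairs, so they are not independent of each other. The signal was highest on the Q84E array for 6 of the 9 genes, on the wild-type ATP11A array for 1 and on the parental array for 2, and of all genes 42.9% were highest on the Q84E array.

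The scaling of the arrays touches these counts. Over all genes, 670 were at least 1.5-fold higher and 229 as much lower in Q84E than in wild-type ATP11A cells, and the split became 422 and 376 with quantile normalization and 374 and 422 with arrays brought to a common median. For Q84E over parental cells it was 853 higher and 341 lower, 556 and 526 with quantile normalization, and 489 and 613 with a common median. The common median moved the median log2 ratio of all genes by -0.14 in both Q84E comparisons. Relative to the median of all genes, 1 of the 9 was past 1.5-fold for Q84E over wild-type ATP11A, Btg2 as before. For Q84E over parental cells 2 were higher, Trp53inp1 at 0.73 and Btg2 at 0.64, Perp was lower at -1.21, and Phlda3 stood at 0.53. Shares of all genes past 1.5-fold on this centred scale are not given here, so these counts have no background beside them.

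**Figure D1:**
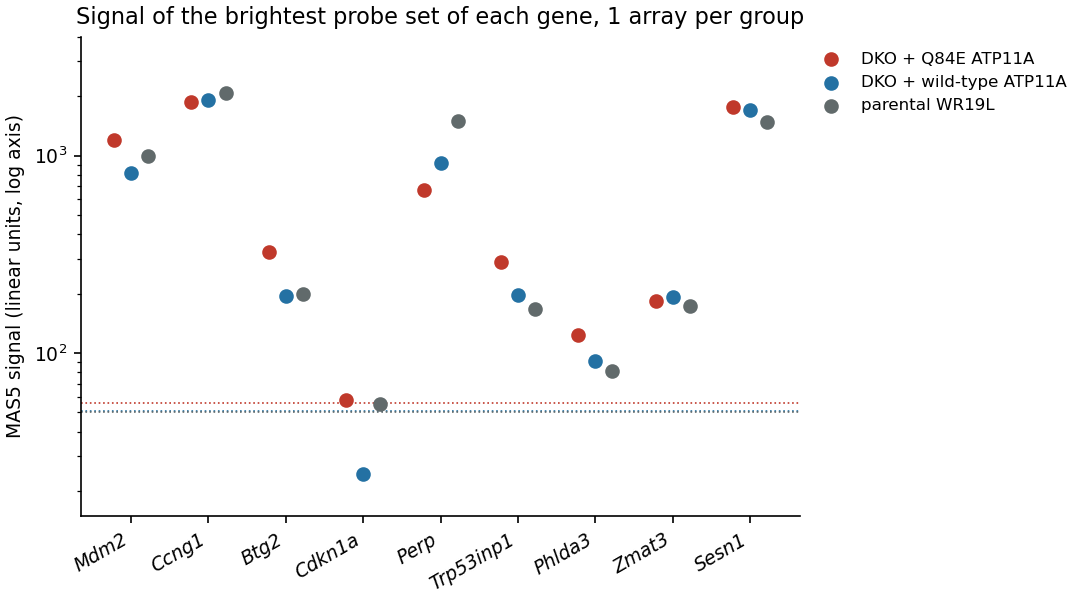
MAS5 signal (log axis) of the brightest probe set of each of the 9 genes, with 1 point per array; dotted lines mark the median of each array, used as the floor. Perp stands at 672 in Q84E cells, against 1489 in parental cells, Btg2, Trp53inp1 and Phlda3 are highest in Q84E cells, and Cdkn1a lies just above the floor in Q84E and parental cells and under it in wild-type ATP11A cells.

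Mdm2 encodes the ubiquitin ligase that marks p53 for degradation, and it is itself raised by p53. Its brightest probe set gave 1203 in Q84E cells, 820.1 in wild-type ATP11A cells and 999 in parental cells. The wild-type ATP11A array was the low one, and the log2 ratio of Q84E over wild-type ATP11A was 0.55, or 1.47-fold, just short of 1.5-fold and 3.11 times the probe set SD. The next probe set gave 719, 701 and 639 in the same order of groups. It was nearly level, with a log2 ratio of 0.04 for Q84E over wild-type ATP11A and 0.17 for Q84E over parental cells, so the difference rested on 1 of 2 probe sets. Both belong to the kind that can match several transcripts of a gene. The last Mdm2 probe set was under the floor on every array, at 2.45 in Q84E, 5.01 in wild-type ATP11A and 27.4 in parental cells.

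Ccng1 encodes cyclin G1, a target that brings a phosphatase to the Mdm2 protein. It was among the brightest of the 9, with 1858 in Q84E cells, 1909.6 in wild-type ATP11A cells and 2073 in parental cells. Its other probe sets gave 1343, 1208 and 1324, and 989.9, 839 and 946, in the same order. All 3 probe sets were lower in wild-type ATP11A than in parental cells, by log2 ratios of -0.12, -0.13 and -0.17, or -1.19, -0.74 and -0.97 in units of the probe set SD. For Q84E over wild-type ATP11A they ran from -0.04 to 0.24, so they differed in sign. Its relative Ccng2, which is controlled by FOXO factors more than by p53, stood apart: 1176 in Q84E cells, 407 in wild-type ATP11A cells and 361 in parental cells. The log2 ratio of Ccng2 was 1.53 for Q84E over wild-type ATP11A by its brightest probe set and 1.41 by the other.

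Btg2 encodes an antiproliferative protein that recruits the CCR4-NOT deadenylase to mRNAs. Its brighter probe set gave 325 in Q84E cells, 194 in wild-type ATP11A cells and 199 in parental cells. The other gave 353, 193 and 148 in the same order. On both probe sets the Q84E array was the high one, and the other 2 arrays were close on the first. For Q84E over wild-type ATP11A the log2 ratios were 0.75 and 0.87, or 1.68-fold and 1.83-fold, at 2.30 and 2.68 times the probe set SD. Against parental cells the ratios of Q84E were 0.71 and 1.25, or 1.63-fold and 2.38-fold. For wild-type ATP11A over parental cells they were -0.04 and 0.38, so the probe sets disagree in sign there.

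The relatives of Btg2 were set beside it. Btg1, which is also antiproliferative and marks quiescent lymphocytes, gave 1051 in Q84E cells, 696 in wild-type ATP11A cells and 478 in parental cells. Its log2 ratio was 0.60 for Q84E over wild-type ATP11A, with the other probe sets at 0.38 and 0.55. For Q84E over parental cells it was 1.14, with the other probe sets at 0.55 and 1.10. Tob1 gave 983, 922 and 619.6 in the same order, and Tob2 gave 1282, 1135 and 987. These 4 genes of the BTG and TOB family all had ratios above 0 in both Q84E comparisons. Of all genes, 58.1% were above 0 over wild-type ATP11A and 59.7% over parental cells. For Q84E over parental cells 3 of the 4 were at least 1.5-fold higher, against 7.36% of all genes. With a common median only Btg1 of the 4 stayed past 1.5-fold there, at 0.995, with Btg2 at 0.57 and Tob1 at 0.52. The median of all genes was then -0.07. The same scaling turned Tob1 to -0.04 for Q84E over wild-type ATP11A and Tob2 stood at 0.04, against a median of -0.09 over all genes. At the deposited scaling the other Tob2 probe sets ran from -0.00452 to 0.60 for Q84E over wild-type ATP11A.

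Cdkn1a encodes p21, the inhibitor of cyclin-dependent kinases through which p53 halts the cell cycle. Its brighter probe set gave 57.7 in Q84E cells, 24.5 in wild-type ATP11A cells and 54.8 in parental cells. The first and last lie just above their floors and the middle one under it, so only bounds can be had: Q84E cells were at least 1.14-fold higher than wild-type ATP11A cells, and wild-type ATP11A cells at least 1.09-fold lower than parental cells. The other probe set was under the floor on all arrays, at 7.69 in Q84E cells, 10.3 in wild-type ATP11A cells and 5.30 in parental cells. The related inhibitors were brighter by their own probe sets. Cdkn1b, or p27, gave 958 in Q84E cells, 869.8 in wild-type ATP11A cells and 988 in parental cells, and Cdkn1c, or p57, gave 367, 324 and 388. Both had ratios within 1.5-fold in all 3 comparisons.

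Perp encodes a tetraspan membrane protein of desmosomes that was described as an effector of p53-dependent apoptosis. Its only probe set gave 672 in Q84E cells, 918 in wild-type ATP11A cells and 1489 in parental cells. Both DKO lines were below the parental array and Q84E was the lowest of the 3. The log2 ratio was -0.70 for wild-type ATP11A over parental cells, or 1.62-fold lower, which is -3.89 in units of the probe set SD. The ratio of Q84E over parental cells was -1.15, or 2.21-fold lower, and that of Q84E over wild-type ATP11A was -0.45, or 1.37-fold lower. With a single probe set no second reading within the arrays was possible. Perp had the widest range of the 4 members whose signal reached the 75th percentile. Among 6891 other genes of that brightness, the 5 with the nearest profile over the 3 arrays, by Euclidean distance of centred log2 signals, were Tubb2a at 0.055, Wnt10a at 0.096, Rbm26 at 0.11, Rcsd1 at 0.11 and Tgds at 0.13. Tubb2a, a beta-tubulin, gave 1087 in Q84E cells, 1483 in wild-type ATP11A cells and 2519.95 in parental cells. A profile over 3 arrays has few ways to vary, so such nearness describes these arrays only.

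Trp53inp1 encodes a stress protein of the nucleus and of autophagosomes that promotes cell death and arrest. Its brighter probe set gave 289.6 in Q84E cells, 197 in wild-type ATP11A cells and 166 in parental cells. The Q84E array was the high one, with a log2 ratio of 0.80 over parental cells, or 1.74-fold, at 2.23 times the probe set SD, and 0.56 over wild-type ATP11A, or 1.47-fold. Wild-type ATP11A over parental cells was at 0.24, under 1 SD of the probe set error. The other probe set stood under the floor on every array, with 38.9 in Q84E, 32.2 in wild-type ATP11A and 18.2 in parental cells. Both probe sets of its relative Trp53inp2 were under the floor.

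Phlda3 encodes a small pleckstrin homology protein that competes with Akt for membrane lipids and so holds Akt back. Its only probe set gave 123 in Q84E cells, 91.0 in wild-type ATP11A cells and 81.3 in parental cells. The log2 ratio was 0.60 for Q84E over parental cells, or 1.51-fold, just past 1.5-fold and 1.66 times the probe set SD. It was 0.44 for Q84E over wild-type ATP11A and 0.16 for wild-type ATP11A over parental cells. The related Phlda1 gave 2309 in Q84E cells, 1941 in wild-type ATP11A cells and 1143 in parental cells, a log2 ratio of 1.01 for Q84E over parental cells and 0.76 for wild-type ATP11A over parental cells. Phlda2 was under the floor on every array.

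Zmat3 encodes a zinc finger protein that binds RNA and controls splicing and stability of mRNAs, and it was level. Its only probe set gave 183 in Q84E cells, 193 in wild-type ATP11A cells and 174 in parental cells, and the 3 log2 ratios, -0.08 to 0.15, were all below 1 SD of the probe set error. The other ZMAT genes above the floor, Zmat1, Zmat2 and Zmat5, had brightest-probe-set ratios between -0.08 and 0.24 over the 3 comparisons, and Zmat4 was under the floor. Zmat1 and Zmat5 turned to just below 0 for Q84E over wild-type ATP11A with quantile normalization or a common median.

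Sesn1 encodes sestrin 1, which restrains mTORC1 signalling and oxidative stress. Its brightest probe set gave 1763 in Q84E cells, 1709.5 in wild-type ATP11A cells and 1488 in parental cells. The next gave 924, 898 and 765, and the third 766, 939 and 659, in the same order. Both DKO lines were above the parental array on all 3 probe sets, with log2 ratios of 0.22 to 0.27 for Q84E over parental cells and 0.20 to 0.51 for wild-type ATP11A over parental cells, all short of 1.5-fold. For Q84E over wild-type ATP11A the probe sets disagreed, from -0.30 to 0.04. The fourth was under the floor throughout, at 53.4 in Q84E, 44.4 in wild-type ATP11A and 44.0 in parental cells. Sesn2, which answers to ATF4 as well as to p53, gave 515 in Q84E cells, 292 in wild-type ATP11A cells and 367 in parental cells, a log2 ratio of 0.82 for Q84E over wild-type ATP11A, against 0.49 by its other probe set. Sesn3, a FOXO target, gave 358, 259 and 300.4 in the same order, with a log2 ratio of 0.47 for Q84E over wild-type ATP11A and 0.06 by its other probe set.

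**Figure D2:**
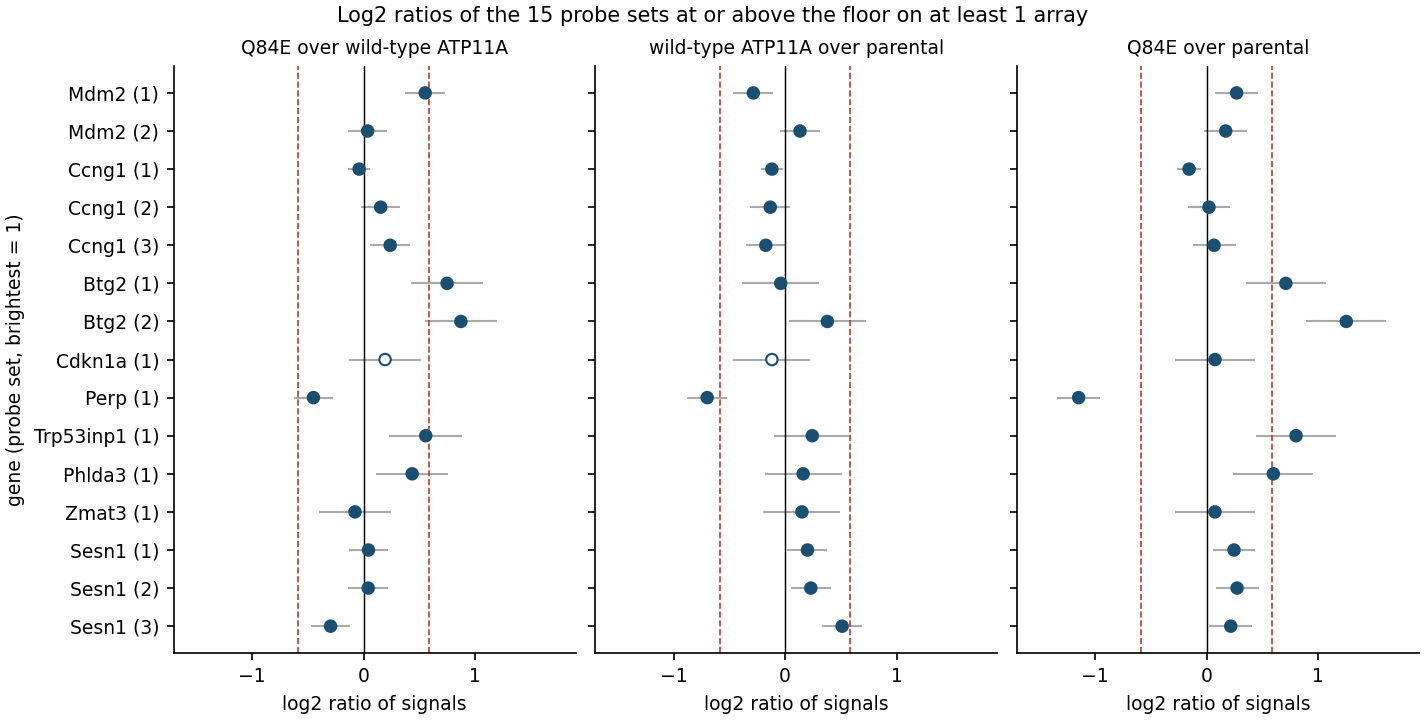
Log2 ratio of signals for the 15 probe sets at or above the floor on at least 1 array, in 3 panels by comparison, with bars of 1 probe set SD and dashed lines at 1.5-fold; open points have 1 level under the floor. Both Btg2 probe sets lie past 1.5-fold for Q84E over wild-type ATP11A, the Mdm2 probe sets lie apart at 0.55 and 0.04, and Perp stands at -1.15 for Q84E over parental cells.

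**Figure D3:**
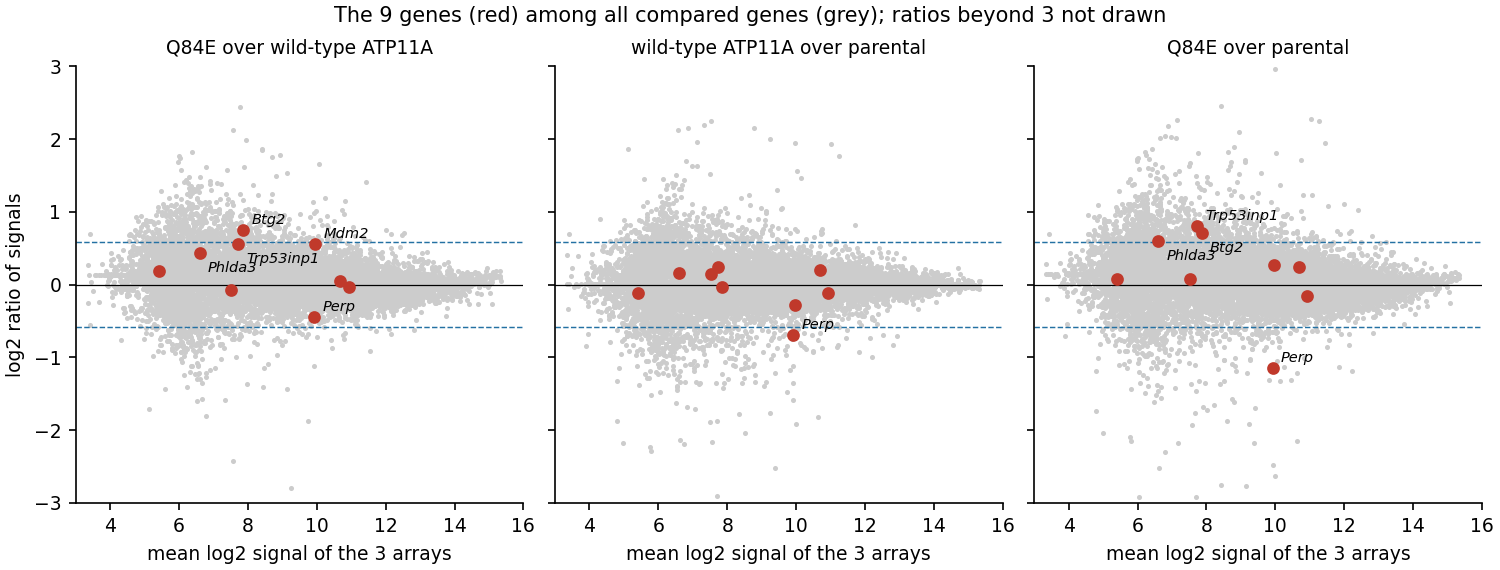
Log2 ratio against mean log2 signal for the 11596 compared genes (grey) and the 9 genes (red), with dashed lines at 1.5-fold. The spread of all genes widens toward low signals, where Phlda3 and Cdkn1a lie, and Perp lies at -1.15 for Q84E over parental cells.

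A hand-written list of 62 other genes known as p53 targets had 57 members with a named probe set and 44 compared. For Q84E over wild-type ATP11A 6 of the 44 were at least 1.5-fold higher and 0 as much lower, against 5.78% and 1.97% of all genes, with 33 above 0, against 58.1% of all genes, and a median of 0.10. For wild-type ATP11A over parental cells 3 were higher and 2 lower, against 3.51% and 3.56% of all genes, with 21 above 0, against 54.2% of all genes, and a median of -0.00453. Of the same 44, 10 were higher and 3 lower for Q84E over parental cells, against 7.36% and 2.94% of all genes. In that comparison 27 were above 0, a share close to the 59.7% of all genes, and the median was 0.21. With a common median, the 10 higher became 6, while the 853 of all genes became 489. The median for Q84E over wild-type ATP11A turned to -0.03, where that of all genes was -0.09. Relative to the median of all genes, 8 of the 44 were higher for Q84E over parental cells. The share of all genes past 1.5-fold on that scale is not given here. For Q84E over wild-type ATP11A 29 of the 44 were then above 0, with a median of 0.06. By construction, as many of all genes lie above 0 as below it on that scale.

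Among the other targets of cell cycle arrest, 6 genes were compared, and their median for Q84E over parental cells was 0.48. Gadd45a is induced by DNA damage and its product blocks the G2 to M step. It gave 763 in Q84E cells, 638 in wild-type ATP11A cells and 485 in parental cells. Its log2 ratio was 0.65 for Q84E over parental cells. Btg1 and Tob1, described above, were the other 2 at least 1.5-fold higher in that comparison, against 7.36% of all genes. With a common median Gadd45a and Tob1 were short of 1.5-fold. Plk3, a stress-activated kinase, reached the floor in parental cells only, at 94.6, and was at least 1.70-fold lower in Q84E cells, by a bound.

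Of 8 compared targets in apoptosis, 2 were at least 1.5-fold higher in Q84E than in parental cells, against 7.36% of all genes. Bbc3 encodes PUMA, a BH3-only protein that starts mitochondrial apoptosis, and gave 179.6 in Q84E cells, 141 in wild-type ATP11A cells and 104 in parental cells, a log2 ratio of 0.78. Fas, the death receptor, gave 1019, 874 and 661 in the same order, a log2 ratio of 0.62, short of 1.5-fold with a common median. Neither Bbc3 nor Fas passed 1.5-fold for Q84E over wild-type ATP11A, at 0.35 and 0.22. Of 5 compared genes that feed back on p53 besides Mdm2 and Ccng1, 0 passed 1.5-fold in any comparison. Of all genes, 1.97% to 7.36% did so by direction and comparison, so 0 of 5 lies near these shares. Mdm4, which blocks p53 together with Mdm2, gave 936 in Q84E cells, 746 in wild-type ATP11A cells and 781 in parental cells, and its probe sets differed in sign for Q84E over parental cells, from -0.44 to 0.26.

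Among 14 compared targets in DNA repair and metabolism, 3 were at least 1.5-fold higher with Q84E than with wild-type ATP11A, against 5.78% of all genes: Ddit4, Lpin1 and Sesn2. Ddit4, an mTORC1 inhibitor that hypoxia, glucocorticoids and ATF4 also raise, gave 5991 in Q84E cells, 2261 in wild-type ATP11A cells and 1562 in parental cells. Lpin1, a phosphatidate phosphatase, gave 462 in Q84E cells, 239 in wild-type ATP11A cells and 223 in parental cells, with a log2 ratio of 0.95 for Q84E over wild-type ATP11A by each of its probe sets. Aldh4a1, an enzyme of proline breakdown, had log2 ratios of 0.14 for Q84E over wild-type ATP11A, 0.62 for wild-type ATP11A over parental and 0.76 for Q84E over parental cells. Ak1, an adenylate kinase, was lower, at -0.67 for Q84E over parental cells. The repair genes Ddb2, Xpc, Polk, Polh, Rrm2b and Ercc5 all stayed within 1.5-fold by their brightest probe sets.

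Among 11 compared targets in signalling, Tnfrsf18 encodes GITR, a receptor found on T cells. It gave 242 in Q84E cells, 186 in wild-type ATP11A cells and 60.0 in parental cells. Its log2 ratio was 2.01 for Q84E over parental cells and 1.63 for wild-type ATP11A over parental cells, and 60.0 is close to the floor. Arap2, an Arf GTPase activator, gave 1995 in Q84E cells, 1091 in wild-type ATP11A cells and 1430.2 in parental cells, with log2 ratios of 0.71 to 0.87 for Q84E over wild-type ATP11A on its 3 probe sets. Kitl, the ligand of the receptor Kit, was at 84.9 in Q84E cells, under the floor in wild-type ATP11A cells and 54.2 in parental cells. Pltp, a phospholipid transfer protein, gave 199 in Q84E cells, 186 in wild-type ATP11A cells and 318 in parental cells, a log2 ratio of -0.67 for Q84E over parental cells, and its probe sets differed for Q84E over wild-type ATP11A, at 0.10 and 0.70.

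By brightest probe set, 0 of 19 compared genes that act on p53 passed 1.5-fold for Q84E over wild-type ATP11A or for wild-type ATP11A over parental cells. Of all genes, 5.78% were higher and 1.97% lower in the first, and 3.51% higher and 3.56% lower in the second. For Q84E over parental cells 1 of the 19 was higher by brightest probe set, against 7.36% of all genes. That gene was Cdkn2a, whose locus encodes Arf, an inhibitor of Mdm2, and also p16. It gave 1983 in Q84E cells, 1340.2 in wild-type ATP11A cells and 1208 in parental cells. Its log2 ratios were 0.57 for Q84E over wild-type ATP11A and 0.72 for Q84E over parental cells. With a common median Cdkn2a was short of 1.5-fold in the latter. These values come from a single probe set that was not assigned to either product here. Among the damage kinases, Atm gave 1312, 1222 and 1017 in the same order of groups, and Chek2 gave 1104, 1101 and 992. Some less bright probe sets passed 1.5-fold. Those of Chek1 reached 1.06 for Q84E over wild-type ATP11A and -1.07 for wild-type ATP11A over parental cells. In the latter, Crebbp reached 0.77 and Hipk2 -0.72. For Q84E over parental cells Atm reached 0.64, Usp7 -0.62, Huwe1 -0.64 and Hipk2 -0.67. Of 3 compared genes among the p53 relatives and ASPP cofactors, 0 passed 1.5-fold in any comparison. Shares over all genes were 1.97% to 7.36% by direction and comparison. The relatives Trp63 and Trp73 did not reach the floor.

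Of 11 compared cell cycle genes that fall when p53 and p21 act, 0 were at least 1.5-fold lower in any comparison by brightest probe set. Of all genes, 1.97% were as much lower for Q84E over wild-type ATP11A. The shares were 3.56% for wild-type ATP11A over parental and 2.94% for Q84E over parental cells, so 0 of the 11 lies near them. Medians of this list were 0.04 for Q84E over wild-type ATP11A, 0.03 for wild-type ATP11A over parental and 0.11 for Q84E over parental cells. By brightest probe set Cdc25c, a phosphatase that starts mitosis, was the only 1 past 1.5-fold, at 0.75 for Q84E over parental cells. Its other probe set gave 0.22, and 7.36% of all genes were at least 1.5-fold higher in that comparison. There another Mybl2 probe set was past 1.5-fold lower, at -0.59, against -0.29 by the brightest. Another Cdc20 probe set was past 1.5-fold higher there, at 0.67, against 0.23 by the brightest. Cdk1, the mitotic kinase, gave 7944 in Q84E cells, 7719 in wild-type ATP11A cells and 6951 in parental cells.

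**Figure D4:**
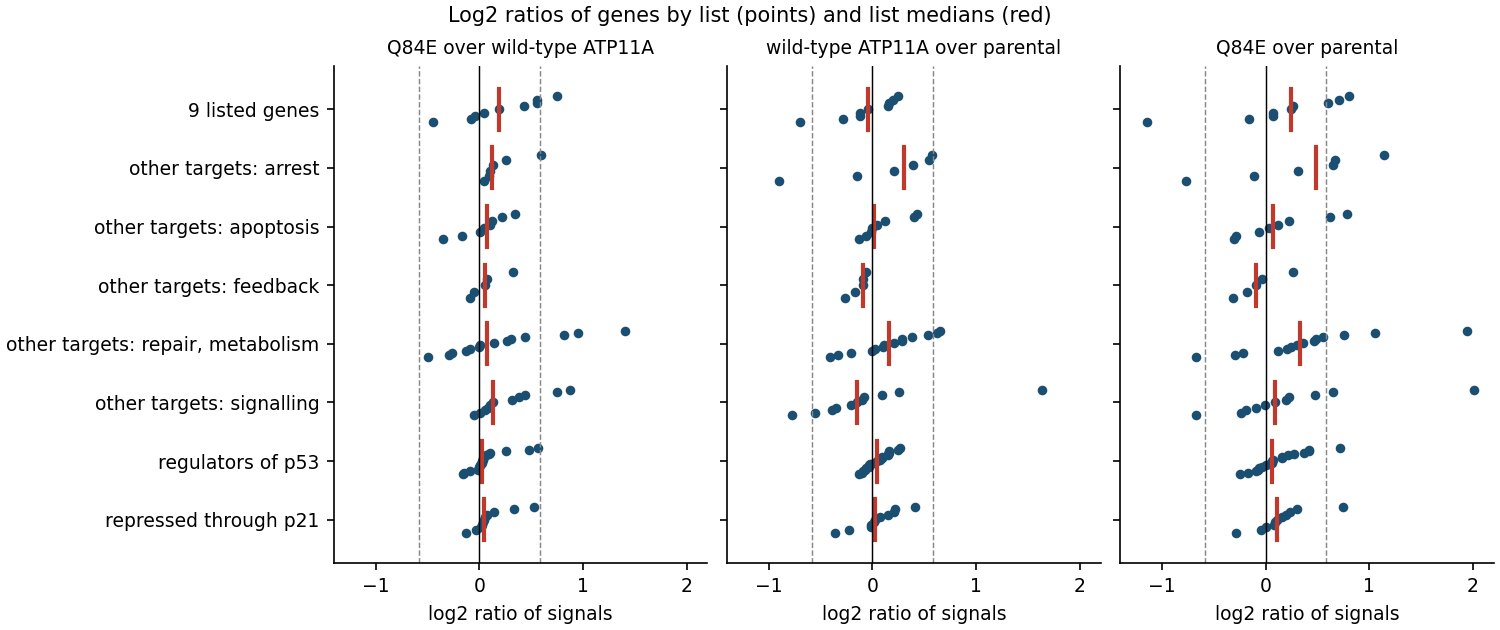
Log2 ratios of the compared genes of each list (points, spread vertically for sight) with list medians (red bars), in 3 panels by comparison; dashed lines mark 1.5-fold. For Q84E over parental cells the arrest targets have a median of 0.48 and the feedback targets -0.09, while the genes repressed through p21 have medians of 0.04, 0.03 and 0.11 in the 3 panels, with Cdc25c at 0.75 in the last.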

How the data were processed

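The deposited values are microarray intensity on a linear scale, 1 signal per probe set, which the authors computed by MAS5, as the submitters' processing notes say (version not given in the sources used here). Trimmed means, leaving out 2% at each end, were 500.0 on all 3 arrays, and this scaling was kept. Gene names came from the platform annotation: of 45101 probe sets, 34958 had 1 gene symbol, 932 several and 9211 none listed. For each gene the probe set of highest mean log2 signal over the arrays was used. Log2 ratios, counts by size and the probe set error were computed with Python 3.11.15, pandas 2.3.3 and numpy 2.4.6, and the steps were tested on simulated data. The probe set error used pairs within 2-fold of each other in signal and above the floor on all arrays, 823 to 1198 per band of signal. Named were all probe sets of the listed genes, up to 5 members per further list past 1.5-fold in any comparison, and the members of small families. A few others were named for their role or chosen after their values were seen. Members and lists were chosen with earlier results of these data known, and list membership was not checked against binding data. The groups came from the labels. Alternatives were quantile scaling, a common median, other floors, an added 50, averaged probe sets, specific probe sets and a 2-fold limit.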

Additional observations from a re-analysis of the deposited data

How the results depend on the processing

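With no replicates, a value was taken as moved when it shifted by more than 1 probe set SD. Of 186 recomputed log2 ratios of single genes, 170 moved by less, 16 by more, and 0 of those past 1.5-fold changed sign. Many of the 170 could not move. Another floor leaves a ratio of signals above the floor as it was. Averaging or dropping probe sets leaves a gene with 1 specific probe set as it was. Of 69 recomputed counts and medians, 58 were close to the reported ones. Counts were taken as close when equal, or when both were above 0 and within 1.5-fold of each other. By that loose rule 3 genes becoming 2 was close. Without a floor, or with the floor at the 25th percentile, Cdkn1a joined the genes past 1.5-fold at its unfloored signals, which made 2 higher for Q84E over wild-type ATP11A and 2 lower for wild-type ATP11A over parental cells, and the median of the 9 for Q84E over wild-type ATP11A became 0.44. With a common median, 1 gene, Perp, was lower for Q84E over wild-type ATP11A, and 1 gene, Trp53inp1, was higher for Q84E over parental cells. At 2-fold in place of 1.5-fold, the genes higher with Q84E, over wild-type ATP11A and over parental cells, and those lower in wild-type ATP11A than in parental cells became 0. Without the less specific probe sets Mdm2 had no compared probe set, and the log2 ratio of Sesn1 was -0.30 for Q84E over wild-type ATP11A and 0.51 for wild-type ATP11A over parental cells. Signs of ratios close to 0 turned with the scaling. With a common median Cdkn1a and Zmat3 were at -0.07 for Q84E over parental cells, and Sesn1 was at -0.09 for Q84E over wild-type ATP11A. The medians of all genes were then also -0.07 and -0.09 in these comparisons. No paired analysis was possible because each group has 1 array. Low signals limit Cdkn1a, Phlda3, Zmat3, Btg2 and Trp53inp1, which lie under the 75th percentile.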

Other observations

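The compared genes on either side of Perp on chromosome 10 were looked up after its values were seen, 3 on each side. For Q84E over parental cells the log2 ratio of Perp was -1.15, and those of Nhsl1, Arfgef3, Tnfaip3, Ifngr1 and Pex7 were 0.43, -0.04, 0.41, -0.35 and 0.07. Hebp2 was at 0.64, a bound, because its parental signal lay under the floor. For wild-type ATP11A over parental cells, Arfgef3 was at -0.40 and Tnfaip3, which encodes the NF-kappa-B inhibitor A20, was at -0.44, against -0.70 for Perp. Tnfaip3 gave 294 in Q84E cells, 163 in wild-type ATP11A cells and 221 in parental cells, with a log2 ratio of 0.85 for Q84E over wild-type ATP11A, where Perp was at -0.45. None of the 6 neighbours was 1.5-fold lower than parental cells in either DKO line. Of all genes, 3.56% were as much lower with wild-type ATP11A and 2.94% with Q84E.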
